A study of Homo sapiens with 9 samples.

Results

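The ABC transporter genes of HepG2 cells were examined after exposure to the secreted protein SPARC. Members were taken by name: every gene whose symbol in the platform annotation consists of ABC, a subfamily letter from A to G and a number. Of the 17687 genes measured, 39 met this rule, and each was represented by 1 transcript cluster, the probe group that the array reports as a unit. HepG2 is an established human liver cancer cell line that keeps many hepatocyte functions, and SPARC is a matricellular glycoprotein that binds collagen. Cells received no SPARC, recombinant SPARC at 200 ng/ml or recombinant SPARC at 800 ng/ml, RNA was collected at 24 h, and each of the 3 groups held 3 arrays. The labels give no genetic change or other agent in any group. The extraction protocol in the labels speaks of untreated cells and the higher dose, while the sample labels name both doses. All arrays come from this 1 cell line, and no label states that replicates were separate cultures, so each p-value measures the spread between these arrays, which may be technical.

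ABC transporters move substrates across membranes with energy from ATP. A full transporter carries a pair of nucleotide-binding domains and a pair of membrane domains, and a smaller type carries 1 of each and works as a dimer. Hepatocytes use them at the canalicular membrane to secrete bile salts, phospholipid, sterols and conjugates into bile, and at the blood-facing membrane to return conjugates to the circulation. Others load lipid onto apolipoproteins, serve mitochondria, lysosomes and peroxisomes, or regulate potassium channels. The E and F subfamilies lack membrane domains and act on ribosomes and translation.

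RefSeq start-site windows on GRCh38.p14, from 250 bases before the start to 50 after it, were found for 32 of the 39 members. Of these, 11 had more than 1 window, which gave 49 windows of 300 bases. ABCA4, ABCA8, ABCB4, ABCB5, ABCC3, ABCC8 and ABCG1 were not matched. The sterol exporter genes ABCG5 and ABCG8 start from opposite strands with 131 bases between the RefSeq starts, so their windows share 231 bases, and this interval is shown because the signals of the pair are compared below. ABCA1 and ABCC2 are shown because they were among the steadiest members. Capitals mark the GC box GGGCGG and the TATA box TATAAA. These were searched on both strands along with the nuclear receptor hexamer AGGTCA and the antioxidant response core TGACNNNGC. The interval of the ABCG5-ABCG8 pair lies at chr2:43838840-43838970 and is printed from the plus strand. The 250 bases before the ABCA1 start lie at chr9:104928156-104928405 on the minus strand. Those before the ABCC2 start lie at chr10:99782390-99782639 on the plus strand.
ABCG5-ABCG8: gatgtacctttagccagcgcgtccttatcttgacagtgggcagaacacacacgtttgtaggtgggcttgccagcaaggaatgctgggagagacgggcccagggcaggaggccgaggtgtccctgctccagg
ABCA1: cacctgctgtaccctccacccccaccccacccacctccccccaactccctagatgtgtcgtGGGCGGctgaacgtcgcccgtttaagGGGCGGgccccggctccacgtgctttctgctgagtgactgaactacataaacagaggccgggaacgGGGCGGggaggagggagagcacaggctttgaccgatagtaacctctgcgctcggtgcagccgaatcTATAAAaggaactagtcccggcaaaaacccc
ABCC2: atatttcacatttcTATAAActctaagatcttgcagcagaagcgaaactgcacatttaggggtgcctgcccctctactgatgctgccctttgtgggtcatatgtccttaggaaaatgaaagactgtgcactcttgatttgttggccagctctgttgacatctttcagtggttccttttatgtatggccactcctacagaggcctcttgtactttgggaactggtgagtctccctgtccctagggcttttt
None of the 4 letter patterns occurs in the printed ABCG5-ABCG8 interval. Over whole windows, GGGCGG occurs in 23 of the 49 member windows (46.9%) against 45.0% of all 35116 windows, and TATAAA in 8 (16.3%) against 11.5%. TGACNNNGC occurs in 11 member windows (22.4%) against 13.3%. AGGTCA occurs in 2 (4.08%), those of ABCD4 and ABCG2, against 13.8%. A match says only that these letters are present, and the lack of one says only that they are not in this window.

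Signals are log2 values as deposited, so a difference of 1 is a doubling. The table holds no detection calls, and probes of different genes bind with different strength, so signals are compared between arrays and not between genes. Median signals of the 9 arrays lay between 5.41 and 5.55. The array of untreated replicate 2 stood apart. Over all transcript clusters, with or without a gene symbol, its correlation with each other array was 0.891 to 0.920, against 0.979 to 0.991 among the other 8. Its SD over these clusters was 1.67 against 1.91 to 2.0. Comparisons with untreated cells are therefore given with all 9 arrays and without that array. Between the doses, the estimate is the same in both fits and only its error differs. Replicates 2 and 3 at 800 ng/ml differed from the rest in glia and neuron markers, whose mean signal over 10 genes was 6.13 and 6.14 there and 4.41 in replicate 1 of that dose. In both arrays, 9 of these 10 markers lay above each of the other 6 arrays (untreated replicate 2 not counted). The 11 hepatocyte and HepG2 markers averaged 10.50 to 10.66 in the 8 arrays and 10.3 in untreated replicate 2. Among them TTR was higher in untreated replicate 2, 8.11 against 7.57 to 7.77. RNA came from whole cultures, so fewer cells of a type and less RNA per cell cannot be told apart in what follows.

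No ABC gene passed the test at either dose when arrays were weighted equally. In the limma fit of all 9 arrays, 0 of the 39 members had an adjusted p under 0.05 at 200 ng/ml against untreated, at 800 ng/ml against untreated or at 800 against 200 ng/ml, and the share of all 17687 genes so called was 0% in each. The same counts of 0 were found without untreated replicate 2. At an unadjusted limma p under 0.05, the fit of all 9 arrays held 0 members in each comparison, where 1.78%, 4.17% and 2.41% of all genes passed. Once untreated replicate 2 was left out, 2 members passed at 200 ng/ml, ABCG2 and ABCG5, both lower than in untreated cells (5.13% of members against 11.3% of all genes, of which 6.03% lower). The higher dose had 0 members passing (5.36% of all genes). At 800 against 200 ng/ml 2 members passed, ABCD2 and ABCG2, both higher at the higher dose (5.13% of members against 15.3% of all genes, of which 7.68% higher). By that measure the members' shares lay below those of all genes in each comparison. With array weights estimated by limma in place of equal weights, the adjusted counts became 6 members and 1971 genes at 200 ng/ml, 15.4% of members against 11.1% of all genes. At the higher dose they became 1 member and 732 genes, 2.56% against 4.14%, and between the doses 0 members and 6 genes, 0% against 0.0339%. That fit gave untreated replicate 1 a weight of 10.7 and untreated replicate 2 one of 0.0399, so the untreated group rested mostly on 1 array. The members called were ABCB9, ABCC8, ABCG2 and ABCG5 lower and ABCC12 and ABCG8 higher at 200 ng/ml, and ABCC8 lower at 800 ng/ml. With weights estimated after untreated replicate 2 was left out, 0 members and 0 genes were called in each comparison.

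The differences of the members were small. The median absolute log2 difference with all 9 arrays was 0.16 over the members and 0.18 over all genes at 200 ng/ml, and 0.21 and 0.25 at 800 ng/ml. The median absolute log2 difference without untreated replicate 2 was 0.10 over the members and 0.15 over all genes at 200 ng/ml, 0.10 and 0.11 at 800 ng/ml, and 0.19 and 0.15 between the doses. The median signed difference in that fit was -0.04 against -0.02 over all genes at 200 ng/ml, 0.01 against -0.01 at 800 ng/ml and 0.08 against 0.01 between the doses. The fit of all 9 arrays gave -0.02 against 0.03 at 200 ng/ml and -0.02 against 0.04 at 800 ng/ml. Signals were higher in 15, 21 and 24 of the 39 members in the 3 comparisons without untreated replicate 2, and in 17, 19 and 24 with it. As shares these were 38.5%, 53.8% and 61.5% of members, against 47.2%, 48.2% and 52.3% of all genes. With that array they were 43.6%, 48.7% and 61.5%, against 54.1%, 54.6% and 52.3%. The precision was limited: the median 95% interval of a member reached 1.31-fold to either side against untreated cells and 1.27-fold between the doses, and 1.48-fold with all 9 arrays. In the fit without that array, the interval lay within 2-fold for 38, 36 and 38 of the 39 members. The comparisons of the doses with untreated cells share the untreated arrays, and all 3 comparisons share arrays.

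**Figure D1:**
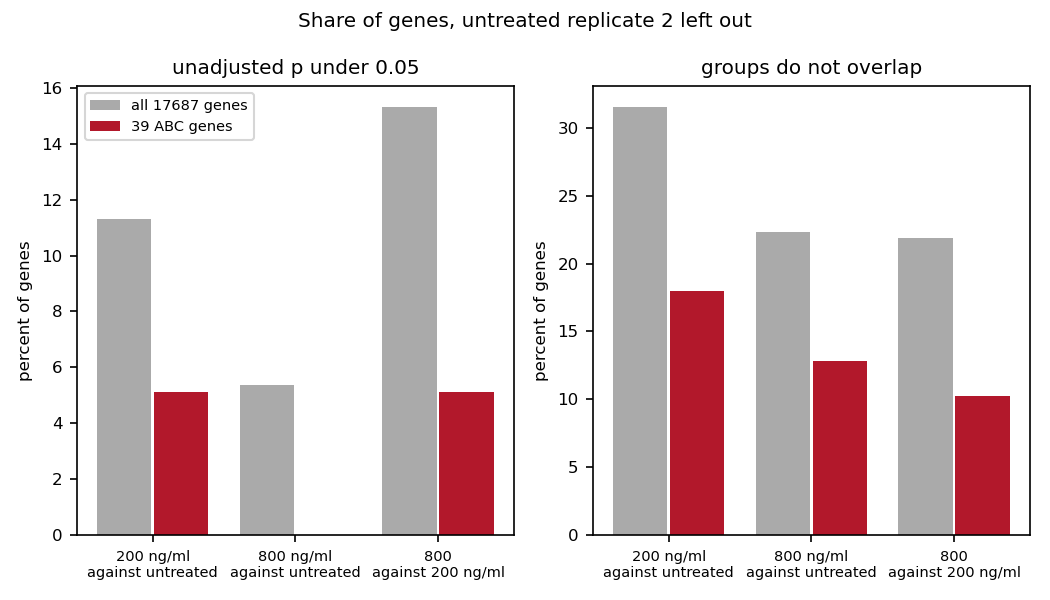
Percent of genes (y axis) with an unadjusted limma p under 0.05 (left) and with groups that do not overlap (right) in the 3 comparisons (x axis), without untreated replicate 2; grey bars are all 17687 genes and red bars the 39 ABC genes. The red bars are lower than the grey bars throughout, with 5.13% against 11.3% for unadjusted p at 200 ng/ml.

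The canalicular exporters deliver the main constituents of bile, and 7 were measured. At 200 ng/ml, 4 were higher and 3 lower than in untreated cells in each fit. The medians were 0.01 with all 9 arrays and 0.03 without untreated replicate 2. They were not the same genes: ABCB1, ABCB11, ABCC2 and ABCG2 changed sign between the fits. The higher dose gave the same counts, with medians of 0.18 and 0.01, and there ABCB11, ABCB4, ABCG2 and ABCG5 changed sign. Of the 7, 0 passed the test in any comparison.

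ABCG2, the breast cancer resistance protein that exports urate, porphyrins and sulphate conjugates, was the member with the lowest difference at 200 ng/ml without untreated replicate 2. The 3 untreated arrays read 7.14, 5.72 and 7.23 in replicate order. Signals were 6.63, 6.89 and 6.59 at 200 ng/ml and 6.90, 7.14 and 7.12 at 800 ng/ml. All arrays at 200 ng/ml were below both untreated replicates 1 and 3, and above untreated replicate 2, while the arrays at 800 ng/ml were all above those at 200 ng/ml, the nearest being 6.90 and 6.89. The limma difference at 200 ng/ml against untreated was 0.01 ± 0.34 (SE, adjusted p 0.999) with all 9 arrays and -0.48 ± 0.14 (adjusted p 0.323) without untreated replicate 2. The higher dose gave 0.36 ± 0.34 and -0.13 ± 0.14 in these fits, with limma adjusted p of 0.662 and 0.985. Between the doses, where the untreated arrays enter only through the estimate of the spread, it was 0.35 ± 0.34 (limma adjusted p 0.999) and 0.35 ± 0.12 (0.248). The sign against untreated cells thus turned with untreated replicate 2 at both doses.

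ABCG5 and ABCG8 form the dimer that exports cholesterol and plant sterols into bile. ABCG5 had signals of 6.67, 5.35 and 6.72 in untreated cells, 6.23, 6.18 and 6.32 at 200 ng/ml and 6.29, 6.39 and 6.60 at 800 ng/ml. All 6 treated arrays were below untreated replicates 1 and 3 and above untreated replicate 2. Without untreated replicate 2, the limma difference was -0.45 ± 0.13 at 200 ng/ml and -0.27 ± 0.13 at 800 ng/ml, with adjusted p of 0.323 and 0.944. With all 9 arrays it was -0.004 ± 0.32 (limma adjusted p 0.999) and 0.18 ± 0.32 (0.790).

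Its partner ABCG8, which starts 131 bases away, had signals of 4.92, 4.89 and 5.39 in untreated cells, 5.33, 5.67 and 5.30 at 200 ng/ml and 5.12, 5.26 and 5.46 at 800 ng/ml. The groups overlapped, and untreated replicate 2 lay close to untreated replicate 1. The limma difference at 200 ng/ml was 0.28 ± 0.18 without untreated replicate 2 (adjusted p 0.583) and 0.37 ± 0.21 with it (adjusted p 0.966). The higher dose gave 0.12 ± 0.18 and 0.21 ± 0.21, and between the doses -0.16 ± 0.16 without untreated replicate 2. The values of the pair at 200 ng/ml were of opposite sign, neither passed the test, and the difference between the genes was not tested.

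ABCC2, which exports bilirubin glucuronide and other conjugates into bile, had signals of 10.12, 9.31 and 10.08 in untreated cells, 10.02, 10.10 and 10.17 at 200 ng/ml and 10.18, 10.11 and 10.23 at 800 ng/ml. Apart from untreated replicate 2, which was lowest, all arrays lay within 0.21. The limma difference without that array was -0.0004 ± 0.11 at 200 ng/ml and 0.07 ± 0.11 at 800 ng/ml, with 95% intervals of -0.25 to 0.25 and -0.17 to 0.32. With all 9 arrays it was 0.26 ± 0.23 and 0.34 ± 0.23, with limma adjusted p of 0.966 and 0.659.

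ABCB11, the bile salt export pump, had signals of 3.09, 3.51 and 2.67 in untreated cells, 2.94, 2.92 and 2.87 at 200 ng/ml and 3.26, 2.92 and 2.49 at 800 ng/ml. The arrays at 200 ng/ml lay inside the range of the other groups, and untreated replicate 2 was the highest of all. Without it, the difference was 0.03 ± 0.21 at 200 ng/ml and 0.01 ± 0.21 at 800 ng/ml, and with it -0.18 ± 0.25 and -0.20 ± 0.25. All 4 values had a limma adjusted p of at least 0.718. ABCB11 signals are near the lower end of the table, where no measure of background was used.

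ABCB4, the phosphatidylcholine floppase of the canaliculus, had signals of 6.19, 6.41 and 6.36 in untreated cells, 6.50, 6.27 and 6.28 at 200 ng/ml and 6.33, 6.34 and 6.23 at 800 ng/ml. The 3 groups overlapped, and untreated replicate 2 lay within them. The difference without untreated replicate 2 was 0.07 ± 0.12 at 200 ng/ml and 0.03 ± 0.12 at 800 ng/ml, and with all 9 arrays it was 0.03 ± 0.17 and -0.02 ± 0.17. Its neighbour ABCB1, the multidrug exporter P-glycoprotein, had signals of 5.75, 6.0 and 5.86 in untreated cells, 6.08, 5.59 and 5.89 at 200 ng/ml and 5.75, 5.56 and 5.75 at 800 ng/ml. The highest arrays at 800 ng/ml were just below untreated replicate 1, so these groups did not overlap, and those at 200 ng/ml spanned both. The limma difference at 800 ng/ml was -0.19 ± 0.19 with all 9 arrays (adjusted p 0.676) and -0.12 ± 0.15 without untreated replicate 2 (adjusted p 0.985), and at 200 ng/ml it was -0.02 ± 0.19 and 0.05 ± 0.15. ABCB1 and ABCB4 lie side by side in RefSeq and encode similar proteins, so their values are uncertain where a probe binds both.

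The remaining dose-to-dose differences of the bile and sterol exporters, given without untreated replicate 2, were all smaller than 2 SE. They were -0.02 ± 0.19 for ABCB11, -0.05 ± 0.11 for ABCB4 and -0.17 ± 0.14 for ABCB1. They were 0.07 ± 0.10 for ABCC2 and 0.18 ± 0.11 for ABCG5. For ABCA1 and ABCG1 they were 0.05 ± 0.11 and -0.13 ± 0.15, and the smallest limma adjusted p of these was 0.457, for ABCG5.

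**Figure D2:**
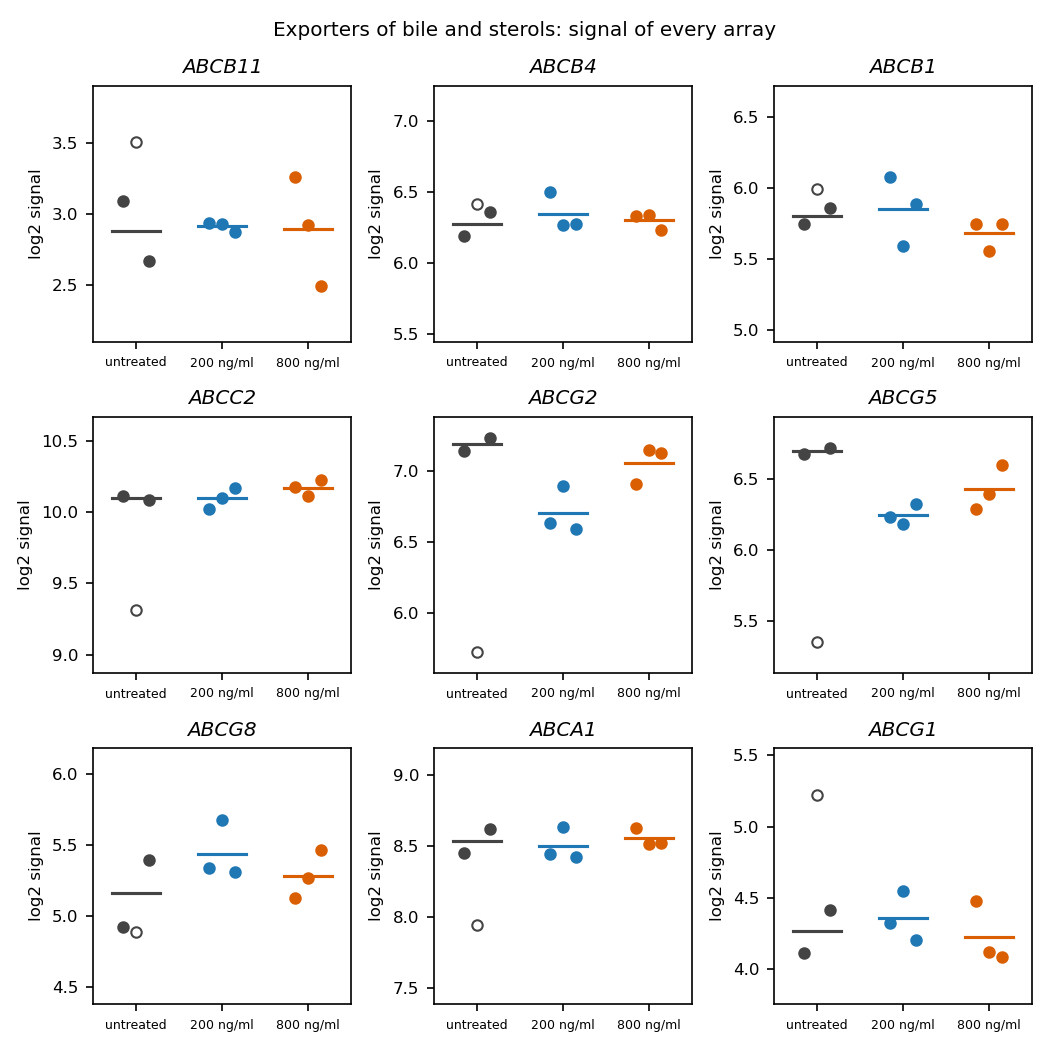
Log2 signal (y axis) of the 7 canalicular exporters and of the sterol exporters ABCA1 and ABCG1 in every array, by dose (x axis); the open circle is untreated replicate 2, and bars are group means without it. ABCG2 and ABCG5 at 200 ng/ml lie below the filled untreated points, at up to 6.89 and 6.32, and ABCC2 and ABCA1 lie level across the filled points.

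Organic anion and drug exporters return conjugates to blood or remove drugs, and 7 were measured: ABCC3, ABCC4, ABCC5, ABCC10, ABCC11, ABCC12 and ABCB5. At 200 ng/ml 4 of 7 were higher in each fit, with medians of 0.003 with all 9 arrays and 0.003 without untreated replicate 2. They were not the same genes, as ABCB5, ABCC4, ABCC5 and ABCC11 changed sign between the fits. The higher dose had 4 of 7 higher with all 9 arrays and 3 of 7 without untreated replicate 2, with medians of 0.05 and -0.04.

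ABCC3, the basolateral exporter of glucuronides and bile salts, had signals of 7.99, 6.64 and 8.09 in untreated cells, 7.85, 8.15 and 8.18 at 200 ng/ml and 8.18, 8.10 and 8.15 at 800 ng/ml. The arrays at 800 ng/ml exceeded every untreated array, by little over untreated replicate 3 and by most over untreated replicate 2. This gave the highest difference of any member at both doses with all 9 arrays, 0.49 ± 0.33 at 200 ng/ml and 0.57 ± 0.33 at 800 ng/ml (limma adjusted p 0.966 and 0.659). The values without it were 0.02 ± 0.13 and 0.10 ± 0.13. ABCC12, a member with no settled substrate, had signals of 4.28, 5.81 and 4.88 in untreated cells, 5.30, 4.67 and 5.04 at 200 ng/ml and 4.76, 4.80 and 4.80 at 800 ng/ml. Untreated replicates 1 and 2 were the lowest and highest arrays. At 200 ng/ml the limma difference was 0.01 ± 0.33 with all 9 arrays (adjusted p 0.998) and 0.42 ± 0.21 without untreated replicate 2 (adjusted p 0.484), the highest of any member in that fit.

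ABCB5, a drug efflux protein known from melanocytic cells, had signals of 3.78, 4.95 and 4.06 in untreated cells, 3.85, 3.61 and 4.37 at 200 ng/ml and 4.99, 4.04 and 3.92 at 800 ng/ml. Replicate 1 at 800 ng/ml and untreated replicate 2 were high, and the groups overlapped. The difference between the doses was 0.38 ± 0.36 with all 9 arrays and 0.38 ± 0.29 without untreated replicate 2 (limma adjusted p 0.547). ABCC5, an exporter of cyclic nucleotides, spanned 5.10 to 5.26 over the 8 arrays, the narrowest range of any member at 0.16, and was 4.76 in untreated replicate 2. ABCC4, which exports cyclic nucleotides and bile salts, spanned 6.26 to 6.87 over the 8 arrays. ABCC10 spanned 7.0 to 7.38 and ABCC11 4.63 to 5.22. ABCC11 and ABCC12 are neighbours in RefSeq.

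The lipid transporters were the largest set, with 14 measured genes: the ABCA members, ABCG1 and ABCG4. With all 9 arrays, 12 of the 14 were lower at 200 ng/ml (median -0.14), and without untreated replicate 2 the split was 7 higher and 7 lower (median 0.04). The higher dose split them into 5 higher and 9 lower (median -0.15), and 7 higher and 7 lower without untreated replicate 2 (median -0.002). Over all genes 54.1% were higher at 200 ng/ml with all 9 arrays and 47.2% without untreated replicate 2. At 800 ng/ml these shares were 54.6% and 48.2%. Of the 14, 0 passed the test in either fit.

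ABCA1, which loads cholesterol and phospholipid onto apolipoprotein A-I, had signals of 8.45, 7.94 and 8.62 in untreated cells, 8.45, 8.64 and 8.42 at 200 ng/ml and 8.62, 8.52 and 8.52 at 800 ng/ml. Only untreated replicate 2 lay outside a range of 0.22. Without it the difference was -0.04 ± 0.12 at 200 ng/ml and 0.02 ± 0.12 at 800 ng/ml, with 95% intervals of -0.31 to 0.24 and -0.26 to 0.29. With all 9 arrays it was 0.16 ± 0.21 and 0.21 ± 0.21. ABCG1, which passes cholesterol to mature HDL, had signals of 4.11, 5.22 and 4.41 in untreated cells, 4.32, 4.55 and 4.20 at 200 ng/ml and 4.47, 4.12 and 4.08 at 800 ng/ml. The groups overlapped, and untreated replicate 2 was the highest array. The difference was -0.23 ± 0.27 at 200 ng/ml and -0.36 ± 0.27 at 800 ng/ml with all 9 arrays, and 0.09 ± 0.17 and -0.04 ± 0.17 without untreated replicate 2.

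ABCA5, a lysosomal lipid transporter, had signals of 5.67, 4.43 and 5.95 in untreated cells, 5.31, 5.41 and 5.64 at 200 ng/ml and 5.61, 5.69 and 6.03 at 800 ng/ml. The arrays at 200 ng/ml were below untreated replicates 1 and 3, the nearest pair being 5.64 and 5.67. In limma, ABCA5 at 200 ng/ml differed by -0.36 ± 0.17 without untreated replicate 2 (adjusted p 0.452) and 0.10 ± 0.34 with it (adjusted p 0.976). Between the doses it was 0.33 ± 0.15 without untreated replicate 2 (limma adjusted p 0.338). ABCA5 closes a row of 5 neighbouring members in RefSeq, ABCA8, ABCA9, ABCA6, ABCA10 and ABCA5. ABCA8 spanned 3.78 to 4.59 over the 8 arrays, and its arrays at 800 ng/ml, 4.36, 4.26 and 3.91, were all below those at 200 ng/ml, 4.59, 4.44 and 4.46. ABCA9 spanned 3.10 to 4.24, ABCA6 3.05 to 4.18 and ABCA10 3.33 to 4.08. The members of the row did not order the arrays alike: replicate 1 at 800 ng/ml was highest for ABCA9 and replicate 1 at 200 ng/ml for ABCA6, untreated replicate 2 not counted.

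ABCA2, a transporter of endosomal and lysosomal lipid, had signals of 5.30, 5.26 and 5.34 in untreated cells, 5.10, 5.24 and 5.10 at 200 ng/ml and 4.95, 5.49 and 4.41 at 800 ng/ml. The untreated arrays, replicate 2 included, lay close together and above those at 200 ng/ml, while the arrays at 800 ng/ml spread widely to either side. The limma difference at 800 ng/ml was -0.35 ± 0.25 with all 9 arrays and -0.37 ± 0.25 without untreated replicate 2 (adjusted p 0.659 and 0.971). ABCA3, the surfactant lipid transporter of lung, had signals of 4.14, 4.72 and 4.39 in untreated cells, 3.66, 4.67 and 4.46 at 200 ng/ml and 4.73, 4.25 and 4.91 at 800 ng/ml. The groups overlapped, and its difference between the doses was 0.37 ± 0.29 with all 9 arrays and 0.37 ± 0.26 without untreated replicate 2. Against untreated cells the higher dose gave 0.22 ± 0.29 and 0.37 ± 0.29. ABCA7, linked to phagocytosis and lipid efflux, had signals of 6.46, 7.37 and 6.09 in untreated cells, 6.38, 6.38 and 6.37 at 200 ng/ml and 6.67, 6.55 and 6.32 at 800 ng/ml. Untreated replicate 2 was far above the rest, and the difference at 800 ng/ml was -0.13 ± 0.29 with it and 0.24 ± 0.15 without it (limma adjusted p 0.833 and 0.971). ABCA4, the retinoid transporter of the retina, spanned 4.0 to 4.87 over the 8 arrays, ABCA12 spanned 2.59 to 3.52, ABCA13 3.72 to 4.42 and ABCG4 3.39 to 3.99.

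The potassium channel regulators ABCC8 and ABCC9 are the sulphonylurea receptors, which gate KATP channels in pancreatic beta cells and in muscle. ABCC8 had signals of 4.49, 4.33 and 3.79 in untreated cells, 4.43, 3.38 and 3.60 at 200 ng/ml and 3.78, 3.13 and 3.71 at 800 ng/ml. All arrays at 800 ng/ml were below all untreated arrays, the nearest being 3.78 and 3.79. This was the lowest difference of any member at that dose, -0.66 ± 0.31 with all 9 arrays and -0.60 ± 0.33 without untreated replicate 2 (limma adjusted p 0.659 and 0.971). ABCC8 is among the dimmest 25% of genes, and its range of 1.35 over the 8 arrays is among the widest of the members. ABCC9 had signals of 2.98, 3.18 and 2.97 in untreated cells, 2.81, 2.83 and 2.58 at 200 ng/ml and 3.18, 2.77 and 3.01 at 800 ng/ml. The arrays at 200 ng/ml were below every untreated array, with a limma difference of -0.30 ± 0.19 (adjusted p 0.966) and of -0.24 ± 0.15 without untreated replicate 2 (adjusted p 0.567). Between the doses ABCC9 differed by 0.25 ± 0.19 with all 9 arrays and by 0.25 ± 0.13 without untreated replicate 2. Its signals too are near the lower end of the table, with no measure of background.

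The smaller, dimer-forming transporters of mitochondria, lysosomes and peroxisomes were 7 in number: ABCB6, ABCB8, ABCB9, ABCB10, ABCD2, ABCD3 and ABCD4. Without untreated replicate 2, 7 of the 7 were lower at 200 ng/ml than in untreated cells, with a median difference of -0.16 and a range of -0.36 to -0.04. With all 9 arrays 5 of the 7 were higher instead (median 0.07). At 800 ng/ml 4 of 7 were higher in either fit, with medians of 0.14 and of 0.03 without untreated replicate 2, though ABCD2 and ABCD4 changed sign. Between the doses 6 of the 7 were higher at 800 ng/ml (median 0.16). Of the 7, 0 passed the test in any comparison. Over all genes 47.2% were higher at 200 ng/ml without untreated replicate 2, and 52.3% were higher between the doses.

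ABCD2, a peroxisomal transporter of very long chain acyl-CoA, had signals of 3.51, 3.96 and 3.53 in untreated cells, 3.40, 3.24 and 3.22 at 200 ng/ml and 3.63, 3.49 and 3.63 at 800 ng/ml. The arrays at 200 ng/ml were below every other array. In limma, ABCD2 at 200 ng/ml differed by -0.38 ± 0.19 with all 9 arrays (adjusted p 0.966) and -0.24 ± 0.12 without untreated replicate 2 (adjusted p 0.469). Between the doses it was 0.30 ± 0.19 (limma adjusted p 0.999) and 0.30 ± 0.10 (0.245). These signals are near the lower end of the table, where no measure of background was used.

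ABCB9, a lysosomal peptide transporter, had signals of 5.30, 5.48 and 4.48 in untreated cells, 4.22, 4.66 and 4.73 at 200 ng/ml and 4.90, 4.73 and 4.73 at 800 ng/ml. Untreated replicates 1 and 2 were high and untreated replicate 3 was lower than all but 1 treated array. The difference at 200 ng/ml was the lowest of any member with all 9 arrays, -0.55 ± 0.27 (limma adjusted p 0.966), and was -0.36 ± 0.24 without untreated replicate 2. ABCB6, a porphyrin-linked transporter that carries the Langereis blood group, had signals of 7.69, 6.70 and 7.85 in untreated cells, 7.69, 7.51 and 7.64 at 200 ng/ml and 7.76, 7.79 and 7.84 at 800 ng/ml. The arrays at 800 ng/ml were all above those at 200 ng/ml. The limma difference between the doses was 0.19 ± 0.27 with all 9 arrays and 0.19 ± 0.10 without untreated replicate 2 (adjusted p 0.413). Against untreated cells the higher dose gave 0.38 ± 0.27 and 0.03 ± 0.12.

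Of the remaining members of this set, ABCB10, a mitochondrial protein of haem synthesis, spanned 6.67 to 7.21 over the 8 arrays. ABCB8, part of a mitochondrial potassium channel complex, spanned 4.31 to 5.30. ABCD3, which brings bile acid precursors into peroxisomes, spanned 9.45 to 9.81. ABCD4, the lysosomal cobalamin transporter, spanned 5.51 to 6.22. In untreated replicate 2 ABCB10, ABCD3 and ABCD4 were below all 8 of these arrays.

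ABCE1, which splits ribosomes after termination, had signals of 8.87, 7.95 and 8.91 in untreated cells, 8.64, 8.95 and 8.83 at 200 ng/ml and 9.09, 8.86 and 9.10 at 800 ng/ml. Untreated replicate 2 was lowest, and the other arrays overlapped between groups. The limma difference at 800 ng/ml was 0.44 ± 0.26 with all 9 arrays (adjusted p 0.659) and 0.12 ± 0.13 without untreated replicate 2 (adjusted p 0.985). ABCF3, a translation-linked ATPase, spanned 6.06 to 6.80 over the 8 arrays. It was the sole member for which replicates 2 and 3 at 800 ng/ml, 6.55 and 6.80, exceeded the other 6 arrays.

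**Figure D3:**
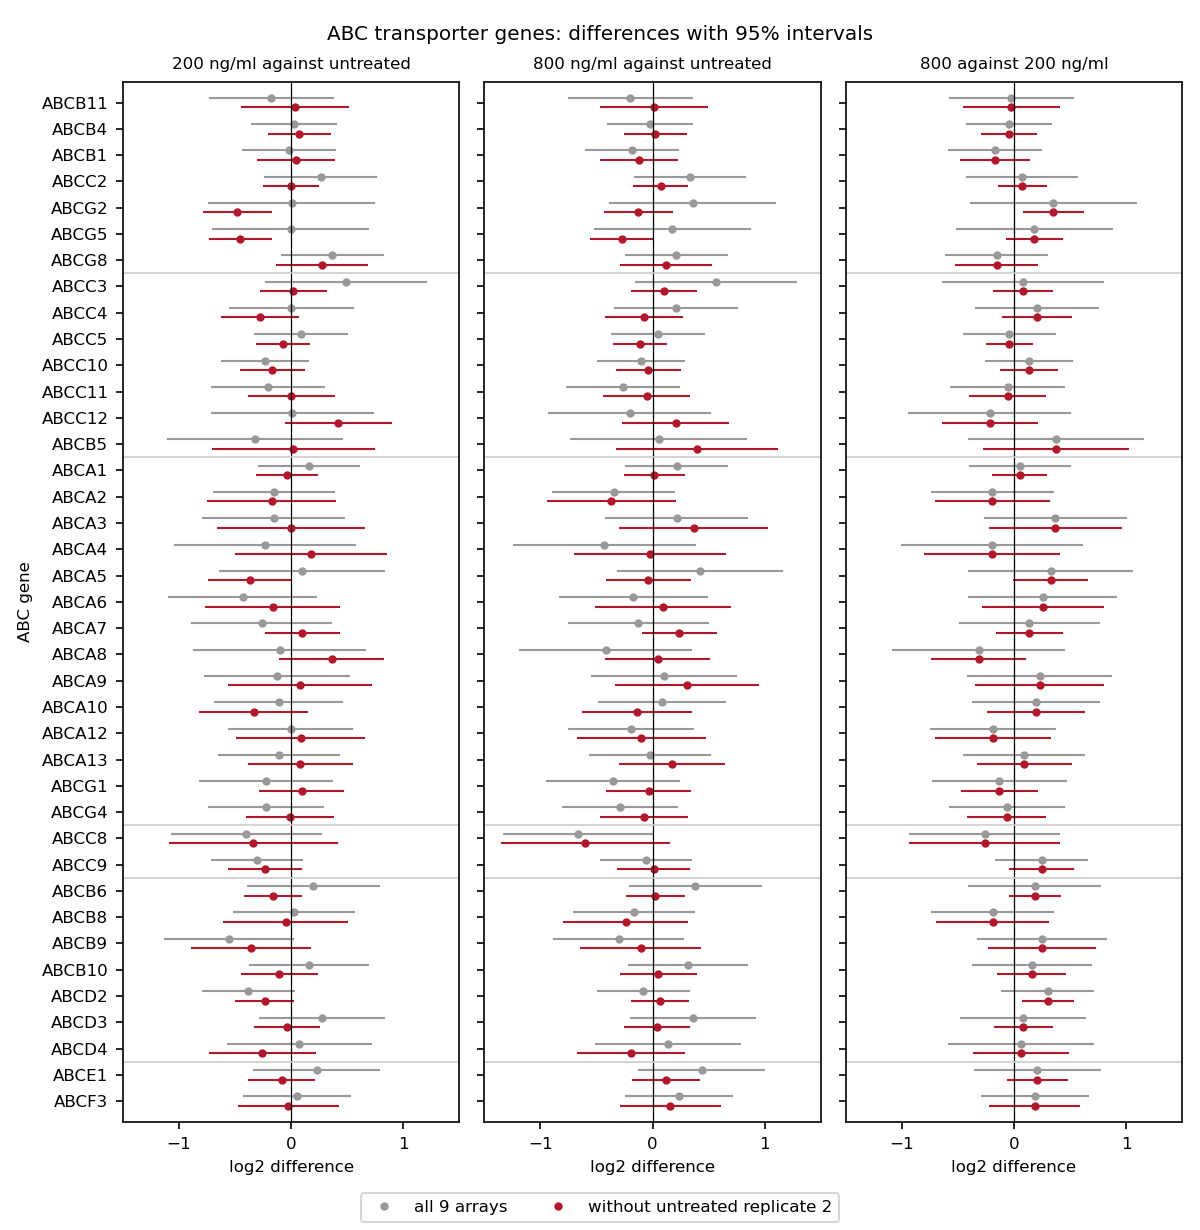
Log2 difference (x axis) of each of the 39 ABC genes (y axis, grouped by role) in the 3 comparisons; points are limma estimates, lines are 95% intervals, grey is the fit of all 9 arrays and red the fit without untreated replicate 2. The red intervals are shorter, with a median reach of 1.31-fold against 1.48-fold in the comparisons with untreated cells, and the red points of ABCG2 and ABCG5 at 200 ng/ml lie at -0.48 and -0.45.

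Groups that do not overlap were counted without a model. With all 9 arrays, 3 members at 200 ng/ml did not overlap with untreated cells (ABCA2, ABCC9 and ABCD2, all lower), 7.69% against 6.98% of all genes, of which 3.06% lower. At 800 ng/ml 3 did not (ABCC3 higher, ABCB1 and ABCC8 lower), 7.69% against 11.2% of all genes, of which 6.08% higher and 5.14% lower. Between the doses 4 did not (ABCB6, ABCD2 and ABCG2 higher and ABCA8 lower at 800 ng/ml), 10.3% against 21.9% of all genes, of which 12.1% higher and 9.72% lower. Without untreated replicate 2, which leaves 2 arrays in the untreated group, 7 members did not overlap at 200 ng/ml, 17.9% against 31.5% of all genes. They were ABCA2, ABCA5, ABCB6, ABCC9, ABCD2, ABCG2 and ABCG5, all lower, and the share of all genes that lay lower without overlap was 17.8%, close to the members' share. At 800 ng/ml 5 did not (ABCC3 higher, and ABCB1, ABCC5, ABCC8 and ABCG5 lower), 12.8% against 22.3% of all genes, of which 10.5% higher and 11.8% lower.

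Untreated replicate 2 was above all other 8 arrays for 14 of the 39 members (35.9%, and 32.5% of all genes) and below all 8 for 15 (38.5%, and 41.7% of all genes). The median absolute deviation from the mean of untreated replicates 1 and 3 was 0.64 for the members and 0.71 for all genes. With all genes split into 4 equal bins by mean signal, from dimmest to brightest, the members' median deviation was 0.51, 0.61, -0.80 and -0.94, and that of all genes was 0.38, 0.56, -0.51 and -0.82. Members and all genes had the same sign in each bin, the members' medians lay farther from 0, and the difference between them was not tested. The lowest deviations were those of ABCG2 (-1.46), ABCC3 (-1.40), ABCA5 (-1.39) and ABCG5 (-1.35), and the highest those of ABCA8 (1.39), ABCC12 (1.23), ABCA4 (1.23) and ABCA7 (1.10). The means of several marker lists were also higher on that array. The mean of the blood and Kupffer cell markers was 6.74 against 5.71 to 6.0 on the other 8, that of the endothelial markers 5.11 against 4.15 to 4.56 and that of the fibroblast and stellate cell markers 5.75 against 4.93 to 5.21. Within the blood list CD68 and LYZ went the other way, 7.15 against 7.86 to 8.13 and 11.4 against 11.5 to 11.7. In the fibroblast and stellate list ACTA2 did so, 7.35 against 8.02 to 8.36. Of the endothelial markers, PECAM1 (3.86 against 3.51 to 4.03), CDH5 (5.22 against 4.95 to 5.75) and KDR (3.31 against 2.80 to 3.39) lay within the other arrays. So did HBB in the blood list and LUM in the fibroblast and stellate list. The 6 cholangiocyte markers averaged 7.58 against 7.65 to 7.74. Of these KRT7 was higher, 7.55 against 5.30 to 6.09, while KRT19, SOX9, EPCAM and SPP1 were lower. The glia and neuron markers averaged 4.53, against 4.21 to 4.41 in the 6 arrays that were not high in them. Among them SLC1A2 was lower, 5.07 against 5.82 to 6.78. The part of these markers in the members' values was not tested.

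**Figure D4:**
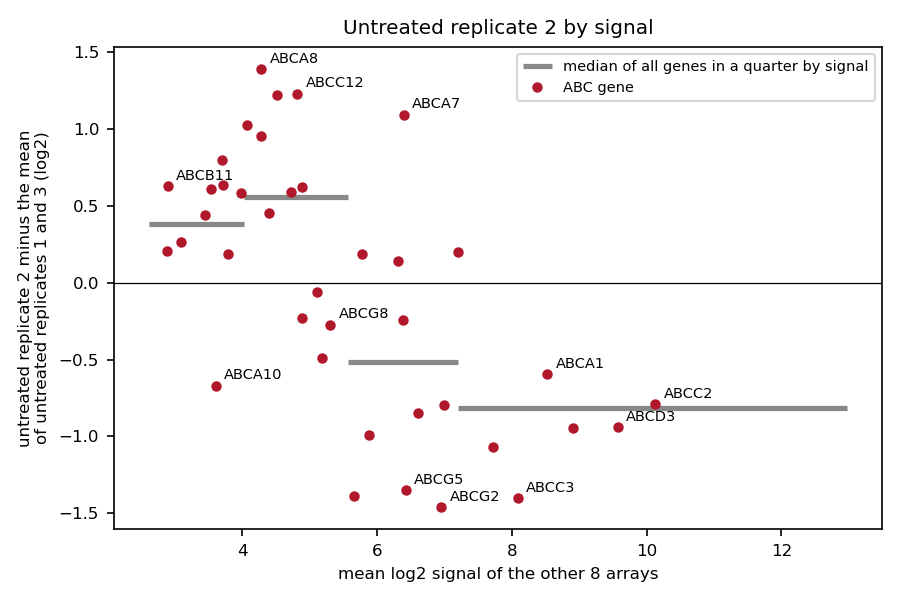
Deviation of untreated replicate 2 from the mean of untreated replicates 1 and 3 (y axis, log2) against the mean signal of the other 8 arrays (x axis, log2) for the 39 ABC genes (red points); grey lines are the medians of all genes in each of 4 equal bins by signal. Points above 0 lie mostly at low signal, and all 6 members of the brightest bin lie below 0.

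Over the other 8 arrays the SD had a median of 0.22 over the members and 0.20 over all genes. The narrowest ranges were those of ABCC5 (0.16), ABCC2 (0.21), ABCA1 (0.22) and ABCB4 (0.31). The widest were those of ABCB5 (1.38), ABCC8 (1.35), ABCA3 (1.26) and ABCA9 (1.14). Replicates 2 and 3 at 800 ng/ml, high in glia and neuron markers, were set against replicate 1 of that dose. Their mean minus replicate 1 had a median of -0.06 over the members and 1.73 over the 10 markers. Single members ranged from -1.01 (ABCB5) to 0.55 (ABCF3). Replicates 2 and 3 both lay above the other 6 arrays for 1 member, ABCF3 (2.56%, and 4.03% of all genes), and below them for 0 (3.69% of all genes). The part of the neural transcripts in the members' values was not tested.

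**Figure D5:**
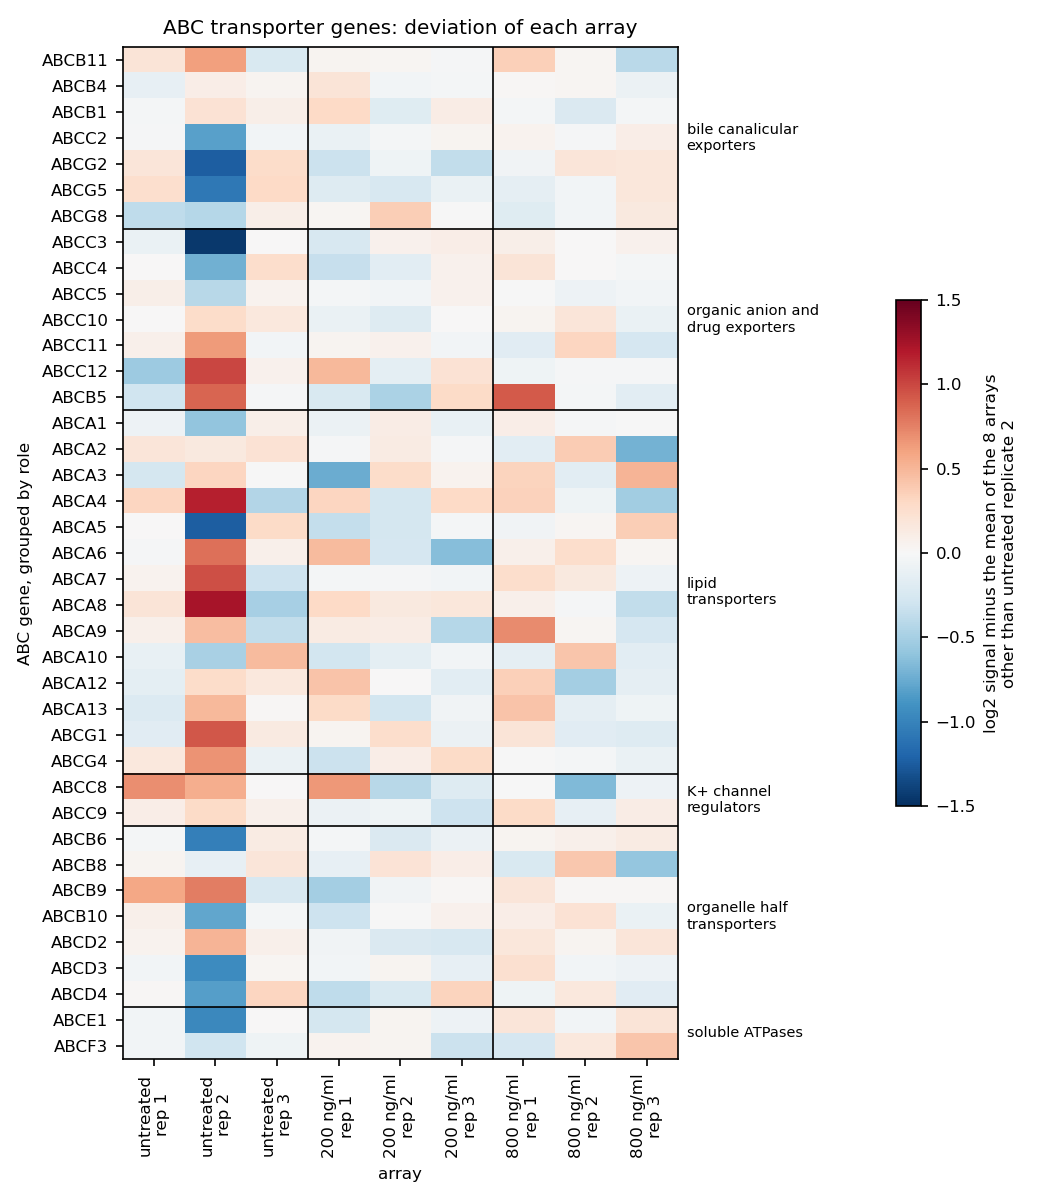
Log2 signal of each of the 39 ABC genes (y axis, grouped by role) in each of the 9 arrays (x axis) minus that gene's mean over the 8 arrays other than untreated replicate 2; red is higher and blue lower. The column of untreated replicate 2 carries the strongest colours, from 1.24 for ABCA8 to -1.45 for ABCC3, and the other columns are paler.

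Genes around the transporters were read from fixed lists, and 0 of them passed the limma test in any comparison, in either fit. The ABC proteins with other symbols are the peptide transporter subunits TAP1 and TAP2 and the chloride channel CFTR. At 200 ng/ml without untreated replicate 2 they differed by -0.12 ± 0.13, 0.20 ± 0.13 and -0.38 ± 0.20, and at 800 ng/ml by -0.20 ± 0.13, 0.24 ± 0.13 and -0.19 ± 0.20. The fit of all 9 arrays gave 0.15 ± 0.23, 0.47 ± 0.24 and -0.40 ± 0.21 at 200 ng/ml and 0.06 ± 0.23, 0.51 ± 0.24 and -0.21 ± 0.21 at 800 ng/ml, so the sign of TAP1 turned and TAP2 moved with that array. Of 14 nuclear receptors and factors that regulate ABC genes, 7 were measured, with 4 higher and 3 lower at 200 ng/ml in each fit. They were not the same genes: NR0B2, SREBF2, NFE2L2 and AHR were higher with all 9 arrays. Without untreated replicate 2 it was NR1H3, NR1I3, PPARA and SREBF2. The measured genes include NR1H3, the oxysterol receptor LXR alpha that drives ABCA1, ABCG1, ABCG5 and ABCG8. NR1H3 had signals of 6.76, 8.51 and 6.67 in untreated cells, 7.14, 6.77 and 6.70 at 200 ng/ml and 6.48, 6.82 and 6.77 at 800 ng/ml. Untreated replicate 2 was far above all other arrays, which overlapped between groups. Its difference without that array was 0.16 ± 0.16 at 200 ng/ml and -0.02 ± 0.16 at 800 ng/ml, and with it -0.44 ± 0.41 and -0.62 ± 0.41. SREBF2, the sterol-sensing activator of cholesterol synthesis, differed by 0.47 ± 0.22 at 200 ng/ml with all 9 arrays and by 0.25 ± 0.13 without untreated replicate 2 (limma adjusted p 0.966 and 0.506).

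Of 11 carriers that take substrates up from blood or act beside the exporters, 10 were measured, with 3 higher and 7 lower at 200 ng/ml and 6 higher and 4 lower at 800 ng/ml without untreated replicate 2. The splits with all 9 arrays were 5 and 5, and 4 and 6. ATP8B1, the flippase that protects the canalicular membrane, differed by -0.38 ± 0.16 at 200 ng/ml and by 0.33 ± 0.14 between the doses without untreated replicate 2 (limma adjusted p 0.428 and 0.327). The anion carrier SLC22A7 ran the other way, with 0.46 ± 0.20 and -0.42 ± 0.18 (limma adjusted p 0.428 and 0.303). At 200 ng/ml with all 9 arrays these genes differed by -0.08 ± 0.26 and 0.11 ± 0.30 only. Of 21 partners of ABC proteins, 18 were measured, with 5 higher and 13 lower at 200 ng/ml without untreated replicate 2, and 13 higher and 5 lower with it. B2M, the light chain of the class I molecules that TAP1 and TAP2 supply, differed by -0.40 ± 0.12 at 200 ng/ml and by 0.29 ± 0.10 between the doses without untreated replicate 2 (limma adjusted p 0.323 and 0.252). In the fit of all 9 arrays B2M differed by -0.09 ± 0.25 at 200 ng/ml and by 0.29 ± 0.25 between the doses. ATP8B1, SLC22A7 and B2M were picked after their values were seen.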

How the data were processed

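Gene expression was measured in HepG2 cells on 9 biotin-labelled, 1-colour arrays, 3 in each of 3 groups. The authors deposited 1 table of log2 signals by transcript cluster. No label states the log2 scale, which was taken from the spread of the deposited values, and the submitters' processing notes name R 3.0. How background was corrected and arrays normalized or filtered is not stated by the labels or the table. The number of arrays limits the precision.

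The platform annotation gave 1 symbol to 17709 of 21448 clusters, several to 0 and none to 3739. The brightest cluster by mean was kept for each gene, which left 17687 genes. All 39 members matched RefSeq by Entrez identifier, and 0 symbols changed. No arrays were duplicates (0 pairs with identical values).

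limma 3.58.1 in R 4.3.3 (lmFit, eBayes) was fitted to all genes with the 3 groups together, and p-values were Benjamini-Hochberg adjusted over all genes, with a threshold of 0.05. The fit was tested on simulated data. Errors are SE from the fit and intervals are 95%. The members and lists were chosen with earlier results of these data known. In each comparison, differences are given for the 5 members with the smallest p in the fit of all 9 arrays and the 5 in the fit without untreated replicate 2, and for 9 exporters of bile and sterols. Other members are given by range or count, and ABCF3 and ABCA8, the related genes ATP8B1, SLC22A7, B2M, NR1H3 and SREBF2, and the array values chosen for description were picked after their values were seen. Promoter windows came from RefSeq on GRCh38.p14. Replicate numbers were checked for pairing: deviations of same-numbered arrays correlated at -0.25 to 0.11, over 0.1 in 1 of 9 pairs, so numbers were not used as pairs. With untreated replicate 2 apart, untreated replicates 1 and 3 deviated alike, each correlating at 0.23 with replicate 2 at 200 ng/ml. The check therefore says little about pairs with untreated arrays. The alternatives comprised other normalizations, filters, array weights, a replicate block and leaving out arrays, 18 planned and 5 added after seeing the data.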

Additional observations from a re-analysis of the deposited data

How the results depend on the processing

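The limits are 3 arrays a group, 1 untreated array that stood apart, no detection calls and an unstated normalization. The counts of called members were 0 under all but 1 of the alternatives run. The exception was array weights, with 6 members at 200 ng/ml and 1 at 800 ng/ml, and 1971, 732 and 6 genes called in the 3 comparisons. Leaving out 1 array at a time gave 0 members, and 0 to 0 genes at 200 ng/ml, 0 to 12 at 800 ng/ml and 0 to 15 between the doses, the highest counts without replicate 1 at 800 ng/ml, which leaves the 2 arrays high in neural markers in that group. Without untreated replicate 2 and the dimmest 50% of genes, 2 genes were called between the doses. No pairing by replicate number was seen (1 of 9 arrays correlated best with an array of its own number). Untreated replicate 2 dominates the deviations of its group, so this check says little about pairs with untreated arrays. With a replicate block 0 members and 0 genes were called. The block is balanced over the groups, so its member medians of -0.016, -0.019 and 0.082 equal those of the fit of all 9 arrays by construction. The cause of the changes in the counts of called genes was not tested.

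Leaving out the dimmest 50% of genes kept 16 of 39 members. With untreated replicate 2 kept, their median difference was then 0.065 at 200 ng/ml and 0.23 at 800 ng/ml. Leaving out the dimmest 25% kept 29 members, with a median of 0.14 at 800 ng/ml. That array was low for bright genes in general. Its median deviation over all genes was -0.51 and -0.82 in the 2 brightest bins. Whether the members moved more than all genes under these filters was not tested. Leaving out 1 array at a time, the median difference of the members ranged from -0.12 to -0.016 at 200 ng/ml and from -0.10 to 0.052 at 800 ng/ml. Between the doses it ranged from 0.039 to 0.13. Without untreated replicate 2 and replicates 2 and 3 at 800 ng/ml it was 0.061 at 800 ng/ml, with 0 members called. For 46 differences of named members, 749 of the values recomputed kept their sign, with 5 more past the threshold, and 44 values changed sign. The 749 is no measure of stability, because some alternatives cannot change a difference. A replicate block, leaving out dim genes and leaving out an array outside the comparison return the same difference by construction. All sign changes came with quantile normalization, median centring, array weights or an array left out. With quantile normalization the reversed values at 200 ng/ml were ABCB4 -0.025, ABCC12 -0.051 and ABCG5 0.10, and ABCA1 between the doses was -0.0067. With median centring they were ABCG5 0.0028 at 200 ng/ml, ABCB4 0.029 at 800 ng/ml and ABCB11 0.020 between the doses. With array weights they were ABCA5 -0.17, ABCB1 0.068, ABCG1 0.19 and ABCG2 -0.45 at 200 ng/ml, and ABCA7 0.046, ABCB4 0.092, ABCG1 0.054, ABCG2 -0.062 and ABCG5 -0.22 at 800 ng/ml. Leaving out 1 array at a time, the values at 200 ng/ml ranged from -0.036 to 0.30 for ABCA1, -0.36 to 0.40 for ABCA5, -0.13 to 0.11 for ABCB1, -0.39 to 0.034 for ABCB11, -0.050 to 0.073 for ABCB4, -0.35 to 0.42 for ABCC12, -0.00040 to 0.40 for ABCC2, -0.46 to 0.094 for ABCG1, -0.48 to 0.27 for ABCG2 and -0.45 to 0.23 for ABCG5. At 800 ng/ml they ranged from -0.40 to 0.24 for ABCA7, -0.41 to 0.012 for ABCB11, -0.085 to 0.026 for ABCB4, -0.13 to 0.62 for ABCG2 and -0.27 to 0.41 for ABCG5. Between the doses they ranged from -0.21 to 0.18 for ABCB11 and -0.087 to 0.030 for ABCB4. An offset before taking logarithms was not run, since the values are already log2.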
